A study of Mus musculus with 12 samples.

Results

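Migrating muscle precursors and the dermomyotome were examined through 8 genes, *Lbx1*, *Met*, *Six4*, *Eya1*, *Eya2*, *Dmrt2*, *Meox1* and *Fgfr4*, of the 23420 genes counted. They were listed by name as regulators and targets around *Pax3*, with earlier results of these data known, and all 8 were found in both count tables and passed the filter on low counts in both lines. The data are mRNA-seq of whole E12.5 mouse embryos from 2 lines, with 3 embryos per group. The *Carm1* line, of strain C57BL/6, gave embryos homozygous for the knockout allele Carm1tm1Mtb (*Carm1 KO/KO*) and wild-type embryos. The *Pax3* line, of mixed strain, gave embryos homozygous for the Splotch allele Sp2H (*Pax3 Sp2H/Sp2H*), described as null, and wild-type embryos. Both alleles are constitutive, so every tissue of a mutant embryo carried them, and both came from intercrosses of heterozygous mice. No litter was given for any embryo.

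The dermomyotome is the dorsal epithelium of the somite, and its cells give rise to the skeletal muscle of the trunk and limbs. PAX3 is a paired-domain and homeodomain transcription factor of these cells and of the dorsal neural tube and neural crest. At limb levels, cells leave the lateral lip of the dermomyotome and migrate into the limb bud, a step that needs the receptor tyrosine kinase MET and its ligand HGF. LBX1 is a homeodomain factor of the migrating cells, SIX4 and its EYA1 and EYA2 cofactors act upstream of and beside *Pax3*, DMRT2 and MEOX1 are transcription factors of the dermomyotome and somite, and FGFR4 is an FGF receptor of muscle progenitors. Most of these genes are also expressed outside muscle, such as *Lbx1* in dorsal spinal interneurons, *Met* in liver and *Eya1* in sensory placodes and kidney.

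In the Pax3 line *Met*, *Dmrt2* and *Fgfr4* had the lowest levels in mutants relative to wild type, and sequence upstream of their annotated exons is shown for that reason. RefSeq windows on GRCm38.p6, from 250 bases before to 50 bases after a start site, were at hand for *Met*, *Six4*, *Dmrt2* and *Fgfr4*. The RefSeq start sites lie at 17463957 for *Met* and 55152818 for *Fgfr4*, some way downstream of the stretches shown. For *Dmrt2* the start site, at 25672411, directly follows the stretch. The stretches below are the parts upstream of each gene's annotated exons, on the + strand, at chr6:17463707-17463799 for *Met*, chr13:55152568-55152639 for *Fgfr4* and chr19:25672161-25672410 for *Dmrt2*.
Met: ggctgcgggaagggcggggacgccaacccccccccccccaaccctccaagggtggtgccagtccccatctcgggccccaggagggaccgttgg
Fgfr4: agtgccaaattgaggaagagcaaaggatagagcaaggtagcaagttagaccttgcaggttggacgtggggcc
Dmrt2: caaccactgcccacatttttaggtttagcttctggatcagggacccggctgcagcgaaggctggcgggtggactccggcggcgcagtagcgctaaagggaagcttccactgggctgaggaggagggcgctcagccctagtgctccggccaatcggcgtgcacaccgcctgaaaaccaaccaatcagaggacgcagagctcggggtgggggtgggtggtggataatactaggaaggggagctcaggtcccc

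After these sequences had been seen, the full windows were searched on both strands for 4 motifs. They were the MEF3 site bound by SIX4 (TCAGGTTTC), pairs of homeodomain half-sites (TAAT followed by ATTA) with any 2 or any 3 bases between them, and a core bound by paired domains (GTCACG). Of all 32851 windows, 0.429%, 0.39%, 0.487% and 8.22% held them. The windows of *Dmrt2* and *Fgfr4* held none of the 4. *Met* and *Six4* held the paired core, and *Six4* held a MEF3 match in reverse complement. The capitals mark the motif in the lines below, taken at chr6:17463897-17463920 on the + strand for *Met* and at chr12:73113418-73113441 and chr12:73113327-73113353 on the − strand for *Six4*, all inside annotated exons.
Met paired core: cccggctgaGTCACGggccgggca
Six4 paired core: accggaggaGTCACGttgggggaa
Six4 MEF3: ggcctggggGAAACCTGAtcggccaga

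On GRCm38, the build of mm10 to which the reads were aligned, *Lbx1* lies on chromosome 19 from 45232684 to 45235812, *Met* on chromosome 6 from 17463800 to 17573980 and *Six4* on chromosome 12 from 73099609 to 73113456. *Eya1* lies on chromosome 1 from 14168954 to 14310235, *Eya2* on chromosome 2 from 165595032 to 165771727 and *Dmrt2* on chromosome 19 from 25672411 to 25678991. *Meox1* lies on chromosome 11 from 101877510 to 101894374 and *Fgfr4* on chromosome 13 from 55152640 to 55168759. No exon of the 8 genes shares bases with another annotated gene.

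The total count per library was between 17183344 and 23518692, and the members had between 77 and 985 counts per library. Pairs of replicates varied beyond counting error (chi-square divided by its degrees of freedom, 3.07 to 23.2). Libraries with over 100 counts on Y-linked genes numbered 0 of 3 *Carm1 KO/KO*, 1 of 3 *Carm1* wild-type, 1 of 3 *Pax3 Sp2H/Sp2H* and 2 of 3 *Pax3* wild-type libraries. Levels are given as CPM, counts relative to library size, with library sizes scaled by edgeR's TMM method over the 12 libraries. Fold changes are mutant over wild type on the log2 scale from edgeR's quasi-likelihood test within a line, and a gene was called where its Benjamini-Hochberg adjusted *P*, taken over all genes tested in that line, was below 0.05. Only 3 embryos were compared with 3, so an exact permutation test of one gene could not go below *P* = 0.1.

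The targeted genes were read first. *Carm1* had 72.4, 70.3 and 77.3 CPM in *Carm1 KO/KO* libraries and 153, 148 and 139 CPM in wild-type libraries of that line. Its log2 fold change was -0.998 (standard error 0.050, edgeR adjusted *P* = 1.23e-15). *Pax3* had 22.0, 21.6 and 17.8 CPM in *Pax3 Sp2H/Sp2H* libraries and 30.7, 24.6 and 27.9 CPM in wild-type libraries, which gave a log2 fold change of -0.43 (standard error 0.095, edgeR adjusted *P* = 0.00142). Mutant and wild-type libraries did not overlap for either gene. Counts are totals over the exons of a gene, so they do not show the Sp2H lesion itself. In the *Carm1* line *Pax3* mRNA was higher in mutants, with 30.9, 29.7 and 27.8 CPM against 20.7, 22.7 and 24.5 CPM (log2 fold change 0.37, edgeR adjusted *P* = 0.00102).

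In *Pax3 Sp2H/Sp2H* embryos, 5 of the 8 members were lower than in wild-type embryos and 0 were higher. They were *Fgfr4*, *Met*, *Dmrt2*, *Eya2* and *Eya1*, with mutant levels between 61.4% and 85.0% of wild type. *Six4*, *Lbx1* and *Meox1* were not called. Of all 15724 genes tested in this line, 10.5% were called lower and 24.5% were called in either direction. In 7 of the 8 members each mutant library lay below each wild-type library, a separation seen in 20.3% of all genes tested (19.6% had mutants above wild type, 39.9% either). The median log2 fold change of the members was -0.34 and that of all genes tested was -0.003.

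**Figure D1:**
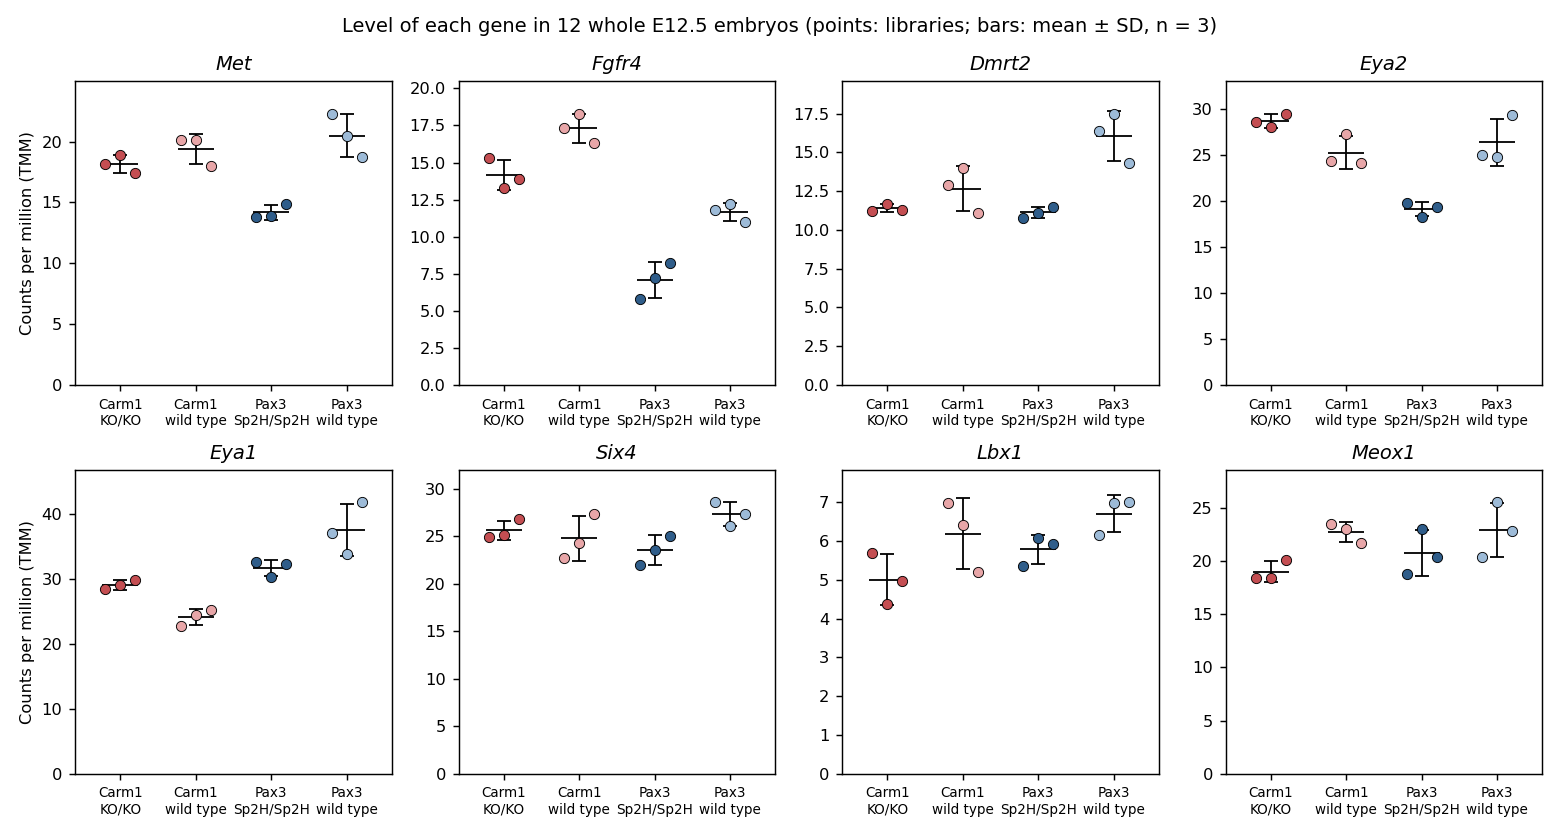
Level of the 8 genes in each of the 12 libraries, as TMM-scaled CPM on axes that start at 0. Points are libraries and bars are the mean ± SD of 3 libraries. The *Pax3 Sp2H/Sp2H* points lie below the wild-type points of that line in every panel but *Meox1*, and the *Fgfr4* points of the *Pax3* line lie below those of the *Carm1* line.

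Both receptor genes fell in *Pax3 Sp2H/Sp2H* embryos. *Fgfr4* had 5.80, 7.19 and 8.26 CPM in mutant libraries and 11.8, 12.2 and 11.0 CPM in wild-type libraries. No mutant library reached the lowest wild-type library. The mean was 7.08 ± 1.24 CPM against 11.7 ± 0.607 CPM (SD, n = 3 each), and the fitted level was 61.4% of wild type (95% confidence interval 51.4% to 73.3%). The log2 fold change of *Fgfr4* was -0.70 (standard error 0.125, edgeR adjusted *P* = 1.52e-04). *Met* had 13.8, 13.9 and 14.9 CPM in mutant libraries and 22.3, 20.5 and 18.7 CPM in wild-type libraries. The mutant libraries lay close together and below all wild-type libraries. *Met* was at 69.8% of wild type (95% confidence interval 61.3% to 79.6%), a log2 fold change of -0.52 (standard error 0.092, edgeR adjusted *P* = 1.53e-04). Both genes stayed below the threshold in each of 15 alternative settings, with adjusted *P* up to 0.00302 for *Fgfr4* and 0.00205 for *Met*.

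*Dmrt2*, the transcription factor gene of the dermomyotome, had 10.8, 11.1 and 11.5 CPM in *Pax3 Sp2H/Sp2H* libraries and 16.4, 17.5 and 14.3 CPM in wild-type libraries. The groups were well apart, with means of 11.1 ± 0.377 and 16.03 ± 1.64 CPM (mutant and wild type, SD, n = 3 each). *Dmrt2* was at 70.2% of wild type (95% confidence interval 60.7% to 81.1%), a log2 fold change of -0.51 (standard error 0.102, edgeR adjusted *P* = 5.78e-04). *Meox1*, a homeobox gene of the whole somite and its derivatives, had 18.8, 23.0 and 20.4 CPM in mutant libraries and 20.4, 25.5 and 22.8 CPM in wild-type libraries. The ranges of *Meox1* overlapped, and its log2 fold change of -0.13 had a 95% confidence interval from -0.32 to 0.07 (edgeR adjusted *P* = 0.351).

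Of *Six4* and its cofactor genes, *Eya2* had 19.8, 18.3 and 19.3 CPM in *Pax3 Sp2H/Sp2H* libraries and 25.0, 24.8 and 29.3 CPM in wild-type libraries. All mutant libraries of *Eya2* lay below 20 CPM and all wild-type libraries above it. It was at 73.0% of wild type (95% confidence interval 64.5% to 82.6%), a log2 fold change of -0.45 (standard error 0.087, edgeR adjusted *P* = 3.66e-04). *Eya1*, which encodes a cofactor of the same family, had 32.6, 30.3 and 32.3 CPM in mutant libraries and 37.0, 33.9 and 41.8 CPM in wild-type libraries. The groups of *Eya1* were apart by little, and the highest wild-type library was replicate 3. Its log2 fold change was -0.23 (standard error 0.083, edgeR adjusted *P* = 0.0386). The *Eya1* call was lost without wild-type replicate 3 (log2 fold change -0.14, edgeR adjusted *P* = 0.262), without any one of the mutant libraries (0.0691, 0.138 and 0.0764 for replicates 1 to 3), and with offsets for length and GC content of transcripts (0.149).

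*Six4* had 22.0, 23.6 and 25.1 CPM in *Pax3 Sp2H/Sp2H* libraries and 28.6, 26.1 and 27.4 CPM in wild-type libraries. Although the groups did not overlap, the log2 fold change of -0.21 (standard error 0.083) was not called (edgeR adjusted *P* = 0.067). *Lbx1*, the gene most closely tied to migrating limb precursors, had 5.36, 6.07 and 5.92 CPM in mutant libraries and 6.15, 6.97 and 7.0 CPM in wild-type libraries. The highest mutant library of *Lbx1* almost reached the lowest wild-type library. Its log2 fold change was -0.20 (standard error 0.135, edgeR adjusted *P* = 0.291), and the 95% confidence interval from -0.48 to 0.07 leaves room for a level as low as 71.7% of wild type. With offsets for length and GC content *Lbx1* was called, at a log2 fold change of -0.40 (edgeR adjusted *P* = 0.032). *Six4* was called in one fit of all 12 libraries (0.0448), and its log2 fold change was -0.08 with the length and GC offsets.

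In *Carm1 KO/KO* embryos the 8 members did not move one way. *Eya1* was higher, *Meox1* and *Fgfr4* were lower, and the other 5 were not called. Of the 15811 genes tested in this line 13.3% were called, 5.49% higher and 7.83% lower. The groups did not overlap for 2 members that were higher in mutants, *Eya1* and *Eya2*, and 2 that were lower, *Meox1* and *Fgfr4*, beside 14.4% and 15.6% of all genes tested (30.0% in either direction). The median log2 fold change of the members was -0.12 (0.001 over all genes tested). None of the 3 calls survived every alternative setting.

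*Eya1* had 28.4, 29.0 and 29.9 CPM in *Carm1 KO/KO* libraries and 22.8, 24.4 and 25.2 CPM in wild-type libraries. Every mutant library exceeded every wild-type library, and the fitted level was 120% of wild type (95% confidence interval 108% to 133%). The log2 fold change was 0.27 (standard error 0.074, edgeR adjusted *P* = 0.0131), and the call was lost without mutant replicate 3 (0.0646). *Eya2* had 28.6, 28.0 and 29.5 CPM in mutant libraries and 24.4, 27.3 and 24.1 CPM in wild-type libraries. The groups of *Eya2* were apart, but its log2 fold change of 0.18 (standard error 0.075) was not called (edgeR adjusted *P* = 0.114). With the length and GC offsets it was (0.0411).

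*Fgfr4* had 15.3, 13.3 and 13.9 CPM in *Carm1 KO/KO* libraries and 17.3, 18.3 and 16.3 CPM in wild-type libraries. The mutant libraries were all lower, at 81.5% of wild type (95% confidence interval 71.4% to 93.0%). The log2 fold change was -0.29 (standard error 0.093, edgeR adjusted *P* = 0.0312). *Meox1* had 18.4, 18.4 and 20.1 CPM in mutant libraries and 23.5, 23.0 and 21.7 CPM in wild-type libraries. Here too the groups were apart, with mutants at 83.5% of wild type (95% confidence interval 74.4% to 93.7%). The log2 fold change of *Meox1* was -0.26 (standard error 0.082, edgeR adjusted *P* = 0.0295). DESeq2 called neither *Meox1* nor *Fgfr4* (adjusted *P* = 0.106 and 0.114), nor did one edgeR fit of all 12 libraries (0.0751 and 0.0728). *Fgfr4* was lost without mutant replicate 2 or 3 or wild-type replicate 2 (0.146, 0.105 and 0.164), and *Meox1* without mutant replicate 1 or 2 or wild-type replicate 1 or 2 (0.119, 0.117, 0.0663 and 0.104).

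The 4 remaining members had overlapping groups in the *Carm1* line. *Met* had 18.2, 18.9 and 17.4 CPM in mutant libraries and 20.1, 20.1 and 18.0 CPM in wild-type libraries. Its log2 fold change was -0.09, with a 95% confidence interval from -0.27 to 0.08 (edgeR adjusted *P* = 0.53). *Dmrt2* had 11.2, 11.7 and 11.3 CPM in mutant libraries and 12.9, 14.0 and 11.1 CPM in wild-type libraries, of which replicate 3 lay below all mutants. The log2 fold change of *Dmrt2* was -0.16, with an interval from -0.37 to 0.06 (edgeR adjusted *P* = 0.386). *Six4* ranged from 24.9 to 26.8 CPM in mutants and from 22.7 to 27.4 CPM in wild-type libraries, a log2 fold change of 0.05 whose sign turned without wild-type replicate 1. *Lbx1* had 5.68, 4.38 and 4.96 CPM in mutant libraries and 6.97, 6.42 and 5.19 CPM in wild-type libraries. Its log2 fold change was -0.30, with the widest interval of the members in this line, from -0.62 to 0.02 (edgeR adjusted *P* = 0.225).

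**Figure D2:**
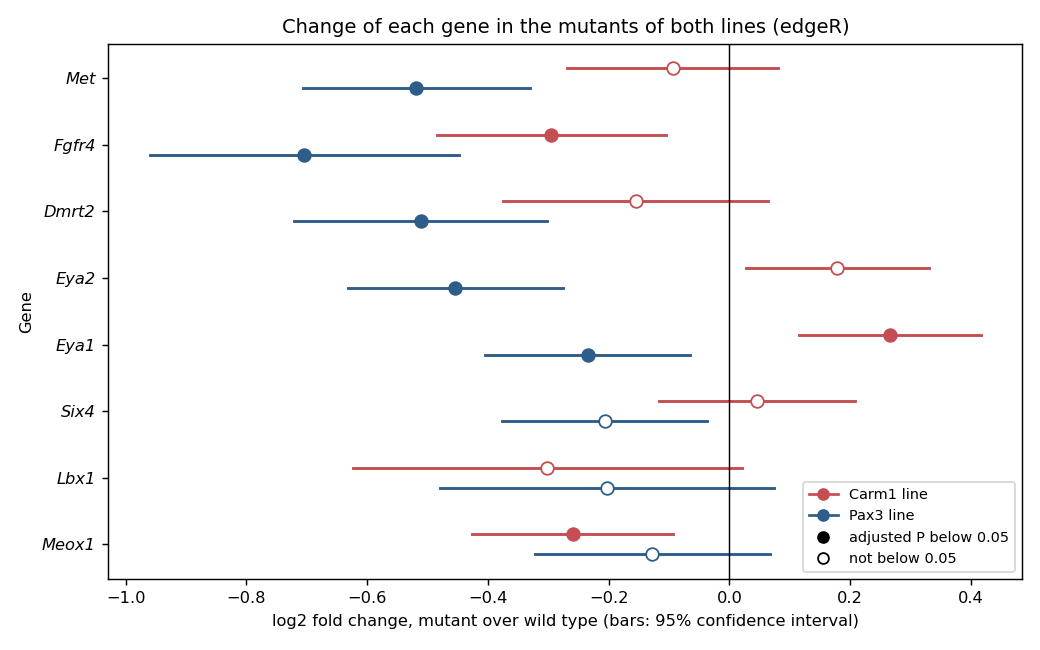
Log2 fold change of each gene, mutant over wild type, in the *Carm1* and *Pax3* lines. Points are estimates of edgeR's quasi-likelihood fit, bars are 95% confidence intervals, and filled points have an adjusted *P* below 0.05. All 8 points of the *Pax3* line lie below 0, while *Eya1*, *Eya2* and *Six4* lie above 0 in the *Carm1* line.

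Whether a gene responded differently in the 2 mutants was tested as an interaction in one edgeR fit of the 12 libraries, in which 19.1% of 16292 genes were called, 8.65% with the higher value in the *Carm1* line. Of the members 3 were called, *Eya2*, *Eya1* and *Met*, each with the higher value in the *Carm1* line. *Eya2* had a log2 fold change of 0.18 in the *Carm1* line and -0.45 in the *Pax3* line, a difference of 0.64 (standard error 0.117, edgeR adjusted *P* = 1.83e-04). *Eya1* had 0.27 and -0.23, a difference of 0.51 (standard error 0.110, edgeR adjusted *P* = 0.00112). *Met* had -0.09 and -0.52, a difference of 0.44 (standard error 0.129, edgeR adjusted *P* = 0.0155). These 3 differences stayed below the threshold in each of 20 alternative settings, *Met* with an adjusted *P* of up to 0.0494 (without *Pax3* wild-type replicate 1).

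For the other 5 members a difference between the lines was not called. *Fgfr4* differed by 0.42 (95% confidence interval 0.10 to 0.74, edgeR adjusted *P* = 0.0551) and *Dmrt2* by 0.37 (0.07 to 0.67, adjusted *P* = 0.0771). Both were called with length and GC offsets. *Six4* differed by 0.26 (0.03 to 0.50, edgeR adjusted *P* = 0.111). The intervals of *Meox1* (-0.39 to 0.14) and *Lbx1* (-0.50 to 0.32) include 0. *Fgfr4* and *Eya1* were called within both lines, *Fgfr4* lower in both and *Eya1* in opposite directions. Strain, colony and table separate the lines as well as the mutated gene, and these cannot be told apart from it.

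Levels between genes were compared as CPM per kilobase of all annotated exon bases of a gene, taken over all its transcripts. The order depends on this choice of length. *Eya1* has 7808 such bases and a longest transcript of 4366, and *Six4* has 10855 and 6817. With the longest transcript as length these genes would stand higher. In wild-type embryos of the *Pax3* line the order from the highest was *Meox1* (10.3), *Eya2* (8.89), *Dmrt2* (6.86), *Eya1* (4.81), *Fgfr4* (3.29), *Lbx1* (2.70), *Met* (2.67) and *Six4* (2.52). In wild-type embryos of the *Carm1* line *Meox1* (10.2) and *Eya2* (8.53) again led, followed by *Dmrt2* (5.41), *Fgfr4* (4.89) and *Eya1* (3.09), and then by *Met* (2.53), *Lbx1* (2.49) and *Six4* (2.28). The last 3 overlapped each other in range in both lines, as did *Meox1* and *Eya2* in the *Pax3* line and *Dmrt2* and *Fgfr4* in the *Carm1* line, and all other neighbours in these orders were apart.

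Across the 4 groups, the order of levels was clear for only some members. For *Eya1* neighbouring groups did not overlap at any step, from 24.1 ± 1.24 CPM in *Carm1* wild-type and 29.1 ± 0.738 CPM in *Carm1 KO/KO* to 31.8 ± 1.26 CPM in *Pax3 Sp2H/Sp2H* and 37.6 ± 3.96 CPM in *Pax3* wild type (SD, n = 3 each). *Fgfr4* was also separated at each step but in another order, with *Pax3 Sp2H/Sp2H* lowest, then *Pax3* wild type, *Carm1 KO/KO* (14.1 ± 1.01 CPM) and *Carm1* wild type (17.3 ± 0.991 CPM). The wild-type embryos of the 2 lines therefore lay apart for both genes. *Met* and *Eya2* stood apart in *Pax3 Sp2H/Sp2H* embryos alone, with overlap between every pair of neighbours among the other 3 groups. *Dmrt2* was highest and apart in *Pax3* wild-type embryos, and the other 3 groups overlapped in sequence. For *Lbx1*, *Six4* and *Meox1* each group overlapped its neighbour.

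The other genes of the pathway were followed in 4 companion lists. Their calls stand beside 24.5% of all genes tested in the *Pax3* line (14.0% higher, 10.5% lower). In the *Carm1* line the share was 13.3% (5.49% higher, 7.83% lower). Myoblast genes fell in *Pax3 Sp2H/Sp2H* embryos in 11 of 11 genes tested, with a median log2 fold change of -1.09 and a range from -1.46 to -0.34. The myogenic factor *Myod1* fell from 26.7 to 10.9 CPM (log2 fold change -1.28, edgeR adjusted *P* = 4.36e-10) and *Myog* from 46.6 to 21.7 CPM (-1.09, adjusted *P* = 6.91e-10). *Mstn*, encoding the growth inhibitor myostatin, fell by 1.46 on the log2 scale, and *Mef2c*, also expressed in heart and neurons, by 0.61. *Myf6* was too low to test. In *Carm1 KO/KO* embryos 2 of the 11 were lower, *Mef2c* (-0.27) and *Myog* (-0.26), and the median was -0.11.

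In a list of 9 relatives and partners of *Six4* and *Eya1*, which holds *Pax3*, *Pax7* and the DACH genes, 3 fell in *Pax3 Sp2H/Sp2H* embryos, *Pax3* itself, *Eya4* (log2 fold change -0.34) and *Eya3* (-0.17). *Six2* (0.32) and *Six5* (0.21), which are also widely expressed in mesenchyme, rose. In *Carm1 KO/KO* embryos 2 of the 9 rose, *Pax3* (0.37) and its paralog *Pax7* (0.36), and 0 fell. With length and GC offsets the calls numbered 2 in the *Pax3* line, none of them higher, and 4 in the *Carm1* line.

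Dermomyotome and somite genes gave calls in both directions in *Pax3 Sp2H/Sp2H* embryos. *Wnt11* (log2 fold change 0.45), the somite factor *Tcf15* (0.42) and the mesodermal forkhead genes *Foxc2* (0.39) and *Foxc1* (0.30) rose, and of the 10 genes *Pax3* alone fell. *Meox2*, the paralog of *Meox1*, had -0.19 (edgeR adjusted *P* = 0.101), and the epaxial and hypaxial dermomyotome genes *En1* and *Sim1* had -0.05 and -0.22 without a call. In *Carm1 KO/KO* embryos *Pax3*, *Pax7* and *Foxc1* (0.35) rose. With length and GC offsets 3 genes were called in the *Pax3* line.

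Of 16 genes of MET and FGF receptor signalling and of migration, 2 rose and 1 fell in *Pax3 Sp2H/Sp2H* embryos. This is a smaller share than the 24.5% called among all genes tested in this line. *Msx1*, a homeobox gene of migrating precursors and limb mesenchyme, rose by 0.48 on the log2 scale, the receptor *Fgfr3* by 0.43, and the FGF receptor adaptor *Frs2* fell by 0.21. *Hgf*, the MET ligand, was near 5 CPM in each group and had a log2 fold change of 0.14 (edgeR adjusted *P* = 0.55), and *Gab1*, the adaptor that docks on MET, of -0.11 (0.196). In *Carm1 KO/KO* embryos the chemokine receptor *Cxcr4* (0.30) and *Fgfr3* (0.26) rose and the guidance ligand *Efna5* (-0.20) fell. The median of this list was 0.04 in the *Pax3* line and 0.01 in the *Carm1* line.

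**Figure D3:**
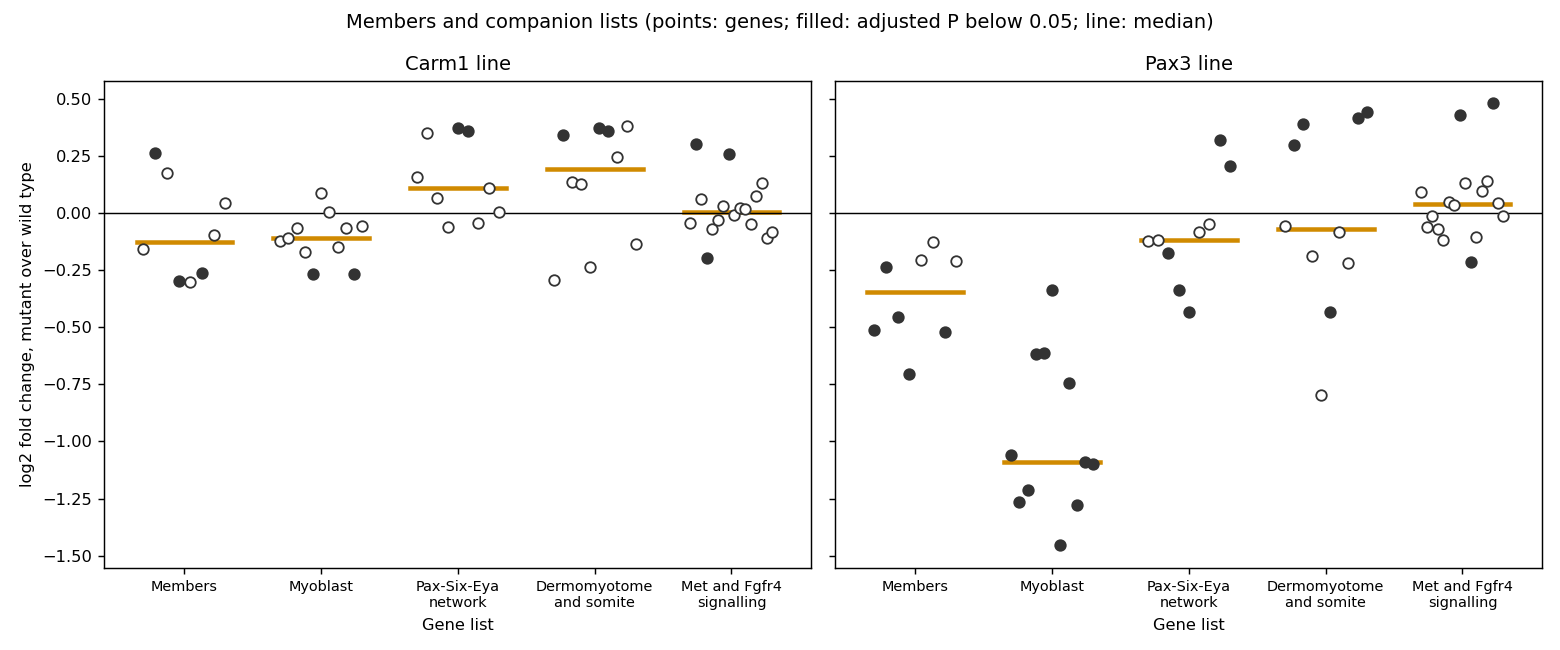
Log2 fold change, mutant over wild type, of each tested gene of the members and of 4 companion lists, by line. Points are genes, filled where the edgeR adjusted *P* was below 0.05, and the bar is the median. In the *Pax3* line the myoblast genes lie lowest (median -1.09), the members have a median of -0.34, and the other lists lie around 0.

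Some markers of other tissues were called too, beside 24.5% of all genes tested in the *Pax3* line and 13.3% in the *Carm1* line. In whole embryos, fewer cells of a type and less RNA per cell cannot be told apart. The members summed to 129 to 138 CPM in *Pax3 Sp2H/Sp2H* and 167 to 172 CPM in wild-type libraries. Over the same libraries the 12 myoblast genes summed to 131 to 140 against 229 to 237 CPM. The 9 sensory ganglion markers summed to 112 to 119 against 161 to 165 CPM, and 6 of them were lower, with a median log2 fold change of -0.46. Hepatocyte markers summed to 829 to 912 against 1010 to 1260 CPM, with 1 of 8 called lower. Their part in the changes of *Met*, *Eya1*, *Eya2* and *Six4*, which are expressed in liver, placodes or ganglia as well, was not tested.

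The 10 dorsal interneuron markers found, of interest for *Lbx1*, summed to 168 to 181 CPM in *Pax3 Sp2H/Sp2H* and 165 to 169 CPM in wild-type libraries, with 1 gene higher and 0 lower. Genes listed as sclerotome markers summed to 348 to 366 against 321 to 346 CPM. Of these 6 genes 2 were higher, *Uncx* (log2 fold change 0.33) and *Scx* (0.31). *Pax1*, *Pax9*, *Nkx3-2* and *Sox9* were not called. Genes listed as nephrogenic mesenchyme markers, which matter for *Eya1*, summed to 198 to 210 against 210 to 212 CPM. Of these 8 genes 2 were higher, *Hoxd11* (log2 fold change 0.26) and *Cited1* (0.29), and 1 was lower, *Ret* (-0.44). Which cells carried the change of *Ret* was not tested. Of 6 erythroid markers tested 0 were called in the *Pax3* line. Among all genes tested in this line, 14.0% were called higher and 10.5% lower.

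In the *Carm1* line the members summed to 149 to 154 CPM in mutants and 149 to 158 CPM in wild-type libraries. The hepatocyte markers stood far apart, at 758 to 889 CPM in *Carm1 KO/KO* and 1420 to 1730 CPM in wild-type libraries, with 7 of 8 lower. *Met* is also expressed in hepatocytes, and the hepatocyte share of its level was not tested. Sensory ganglion markers summed to 167 to 174 against 183 to 195 CPM, with 4 of 9 lower and 1 higher. Of the 6 erythroid markers tested 5 were lower, and *Hbb-y* was not called. The sums of the list overlapped (5350 to 6320 against 4580 to 8040 CPM). *Hbb-y* made up most of these sums, with means of 5231 CPM in mutants and 5404 CPM in wild type. *Hba-a1*, a gene with a near-identical copy, had 0 counts in all 12 libraries. Dorsal interneuron markers had 1 gene lower of 10, sclerotome markers 1 higher and 1 lower of 6, and nephrogenic markers 1 higher and 1 lower of 8. Among all genes tested in this line, 5.49% were called higher and 7.83% lower. The part of these tissues in the changes of *Eya1*, *Meox1* and *Fgfr4* was not tested.

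**Figure D4:**
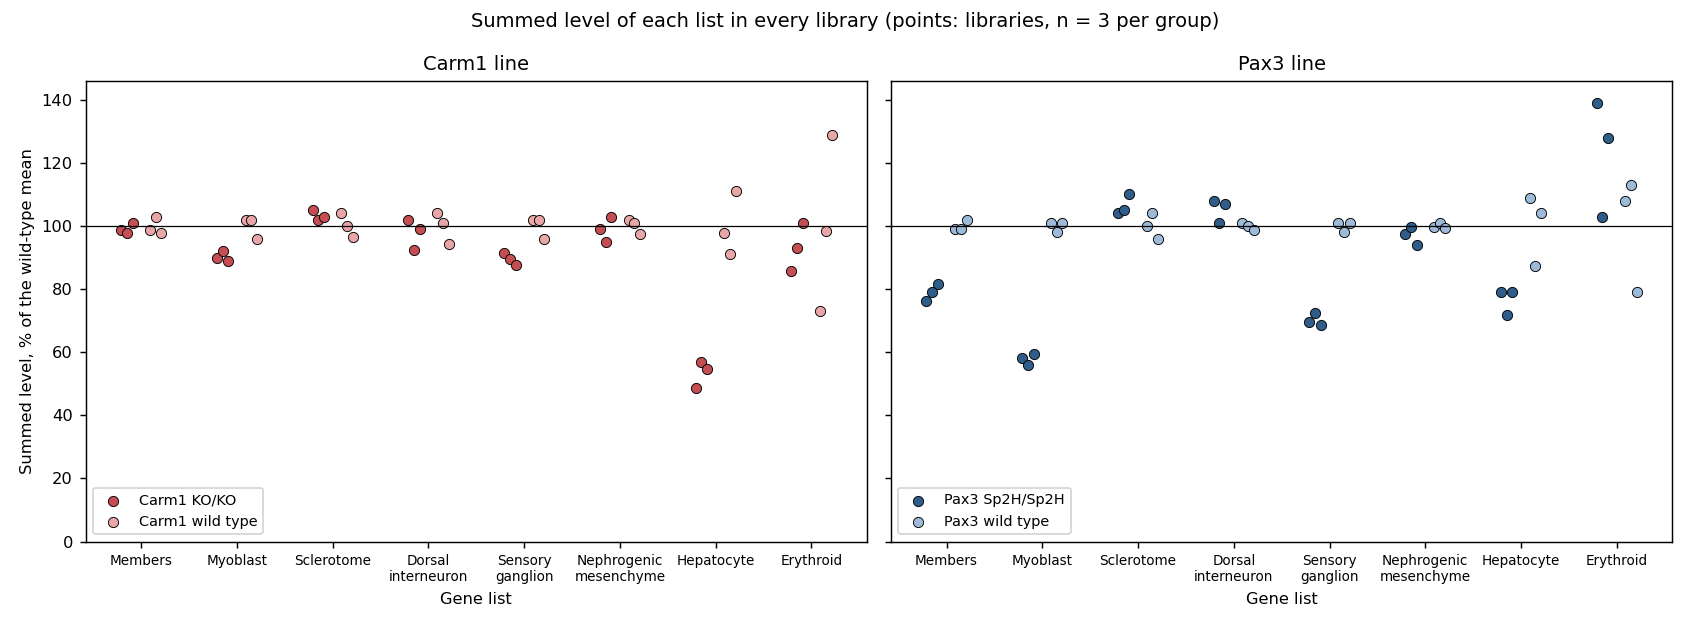
Summed level of each list in each library, as a percentage of the wild-type mean of its line. Points are libraries, 3 per group. In the *Pax3* line the members, myoblast, sensory ganglion and hepatocyte lists lie wholly below their wild-type libraries, and in the *Carm1* line the myoblast, sensory ganglion and hepatocyte lists do, the last at 48.6% to 56.9%.

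Over the 12 libraries some members varied together more closely than others. Pearson's r was computed on log2 CPM after the mean of each line was subtracted, so that it includes the mutant difference itself, and it is given as a description. *Met*, *Dmrt2* and *Fgfr4* ran closest together, with r = 0.954 for *Met* and *Dmrt2*, 0.906 for *Dmrt2* and *Fgfr4* and 0.904 for *Met* and *Fgfr4*. *Eya1* and *Eya2* had r = 0.852, and *Lbx1* and *Meox1* had r = 0.767. *Eya1* and *Meox1* ran against each other, with r = -0.382. *Met* had r = 0.955 with the myoblast gene *Myod1* and 0.426 with the hepatocyte gene *Alb*.

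Among 14797 genes, those most like each member over the 12 libraries were named by rank. For *Fgfr4* they were *Kcne1l* (r = 0.978), *Cdon* (0.953), which encodes a cell-surface receptor of myoblasts, and *Hfe2* (0.95), which encodes hemojuvelin of skeletal muscle and liver. For *Met* they included *Pappa2* (0.971) and *N4bp2* (0.968), and for *Dmrt2* they were *Dock1* (0.969), which encodes an activator of the GTPase RAC in migrating and fusing cells, *Met* (0.954) and *8430427H17Rik* (0.945). *Ubqln1* (0.963), *Mapkap1* (0.963) and *Cab39* (0.955) were closest to *Eya2*, and *BC052040* (0.957), *Vma21* (0.948) and *Hs2st1* (0.943) to *Eya1*. *Six4* was closest to *Ssfa2* (0.923), *Lbx1* to *Cdkl2* (0.923) and *Meox1* to *Ets2* (0.955).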

How the data were processed

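RNA of whole E12.5 embryos was selected for polyadenylated transcripts and sequenced as paired reads of 150 bp by a commercial provider. Per the labels and the study's methods, the authors aligned reads to mm10 with STAR and used featureCounts for the reads that fell on each gene's exons (versions and strand setting not given in the sources used here). The deposited tables, 1 per line, hold these counts as whole numbers, not normalized. The authors' own comparisons were not used.

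Each line was fitted on its own with edgeR 4.0.16 in R 4.3.3 (TMM, filterByExpr, robust quasi-likelihood fit, Benjamini-Hochberg over all genes tested, threshold 0.05), and an interaction over the 12 libraries tested whether the lines differed. The study used DESeq2, which was run here (version 1.42.0) as an alternative. The fits were tested on simulated data whose planted changes were larger than most of the called member changes. That test therefore does not bear on calls of this size. Groups came from the sample labels. Replicates are numbered embryos, and *P* values set the difference between groups against the estimated spread between embryos.

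The members and the gene lists were chosen with earlier results of these data known. Genes named are the 8 members, both targeted genes, the listed genes and the 3 genes most correlated with each member (mean of at least 1 CPM, log2 CPM with a prior count of 2). Of the symbols, 21777 matched GENCODE annotation of GRCm38 as written, 1260 through an older symbol and 383 not at all, among them *Drgx* and *Hbb-bt*. Genes are shown under the symbols in the tables. Not every gene that this rule names is reported here.

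Alternatives were DESeq2, RLE and upper-quartile factors, no filter, at least 10 counts in every library, one fit of 12 libraries, the replicate number as a block, a term for Y-linked counts (over 100), offsets for length and GC content (splines with 5 degrees of freedom), and leaving out each library. Same-numbered mutant and wild-type libraries deviated together for replicates 1 and 3 of the *Pax3* line but not for the other 4 numbers, and since the labels give no shared litter or batch the numbers were not treated as pairs.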

Additional observations from a re-analysis of the deposited data

Results flagged for a closer look

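For 3 members the change in *Carm1 KO/KO* embryos differed from that in *Pax3 Sp2H/Sp2H* embryos by the interaction test of edgeR (Benjamini-Hochberg over 16292 genes). The log2 fold change in the *Carm1* line exceeded that in the *Pax3* line by 0.64 for *Eya2*, which had 28.0 to 29.5 CPM in *Carm1 KO/KO* and 18.3 to 19.8 CPM in *Pax3 Sp2H/Sp2H* libraries. It exceeded it by 0.51 for *Eya1*, the member called in both lines in opposite directions, and by 0.44 for *Met*, whose groups overlapped in the *Carm1* line. The wild-type libraries of *Eya2* and *Met* overlapped between the lines, at 24.1 to 27.3 and 24.8 to 29.3 CPM for *Eya2* and 18.0 to 20.1 and 18.7 to 22.3 CPM for *Met*, whereas those of *Eya1* did not. Groups of 3 libraries were not searched for outlying samples.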

How the results depend on the processing

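The calls of *Fgfr4*, *Met*, *Dmrt2* and *Eya2* in the *Pax3* line and the differences between the lines for *Eya1*, *Eya2* and *Met* kept their direction and stayed below the threshold in all alternatives. In the *Carm1* line the number of members called, 3, was 1 with DESeq2, 1 in one fit of all 12 libraries, 4 with length and GC offsets and between 1 and 3 when 1 library was left out (1 without *Carm1 KO/KO* replicate 2 or 3 or wild-type replicate 2). In that line the list of relatives and partners of *Six4* and *Eya1*, with 2 called, had 1 with a term for Y-linked counts, 4 with length and GC offsets and between 1 and 3 with 1 library left out (1 without *Carm1 KO/KO* replicate 1). With length and GC offsets this list had 2 in the *Pax3* line (5 before) and the dermomyotome list 3 (5 before), and 5 members differed between the lines (3 before). Those offsets also moved all genes called in the *Carm1* line from 868 higher of 2106 to 1923 higher of 3204. The difference of *Lbx1* between the lines turned from -0.09 to 0.10 with the offsets and ranged from -0.20 to 0.0017 (without *Carm1 KO/KO* replicate 2) with 1 library left out. *Six4* in the *Carm1* line, at 0.05, ranged from -0.0091 (without wild-type replicate 1) to 0.12. The cause of these moves was not tested. With the replicate number as a block, 3 members were called in the *Carm1* line, 5 in the *Pax3* line and 3 for the difference, as without it, and the correlation of same-numbered libraries was between -0.06 and -0.001 in the *Carm1* line and between -0.08 and 0.28 in the *Pax3* line. *Lbx1* had the fewest counts (77 to 165 per library) and the widest intervals of the members.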
